A study of Mus musculus with 6 samples.

Results

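Chemokines and their receptors were followed in hearts of mice with floxed PHD2 and PHD3 alleles, with or without Cre, as a group of genes chosen by name. A gene belonged to the group if an array probe mapped to a symbol made of Ccl, Ccr, Cxcl, Cxcr or Ackr and a number, or to Cx3cl1, Cx3cr1, Xcl1, Xcr1 or Ccrl2. Of the symbols in the gene table, 63 such were followed, of which 57 had a matched probe, out of 20128 symbols with a probe on the array. No matched probe was found for Ccl21a, Ccl21b, Ccl21c, Ccl21d, Ccl27b and Cxcl11, and these 6 are not analysed here.

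RNA of 6 whole hearts was hybridised to 1-colour Agilent mouse expression arrays, 1 array per heart. The mice were 8 weeks old and of strain C57/B6, and all 6 carried PHD2/3f/f, the floxed alleles of 2 prolyl hydroxylases that mark the alpha subunits of hypoxia-inducible factors for destruction in the presence of oxygen. The 3 control hearts were Cre-/- and the 3 others were Cre+/-, which the labels call PHD2/3 KO and which are called KO-labelled hearts here. The labels describe the replicates as biological but name no Cre driver, no inducer and no sex, so the cell type in which Cre was active is not known here, and p-values measure the spread between these 6 hearts only.

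Chemokines are small secreted proteins that steer the movement of leukocytes, and they act through G protein-coupled receptors on the cells that they attract. The atypical receptors (Ackr1 to Ackr4, and Ccrl2) bind chemokines without signalling through G proteins, and most of them take up, transport or present their ligands. In the heart, chemokines come from endothelial cells, fibroblasts and resident macrophages, while most of the conventional receptors sit on leukocytes that live in the tissue or enter it from the blood.

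A level is given throughout as log2 of the background-subtracted signal minus log2 of that array's 75th percentile signal, so that 0 is the 75th percentile and a dim probe has a negative value. Between 46.3% and 51.0% of the probes on an array were well above background, the 75th percentile signal ran from 147 to 235, and no probe was saturated. All 6 arrays lay on 1 slide. The first index of the array position was 1 for every control array and 2 for every KO-labelled array, so that this index and group cannot be told apart. The 6 cardiomyocyte markers (Myh6, Tnnt2, Tnni3, Actc1, Myl2 and Ryr2) were well above background on every array, which bears out the heart label, and all 6 were lower in the KO-labelled hearts. Of the targeted genes, Egln1, which encodes PHD2, fell by 1.23 ± 0.21 on the log2 scale (2.35-fold, adjusted p = 0.00652), whereas Egln3, which encodes PHD3, rose by 1.98 ± 0.17 on the log2 scale (3.93-fold, adjusted p = 0.00165). No probe position was available to tell whether the Egln3 probe lies inside the floxed part. The rise of Egln3 can therefore neither bear out nor contradict the label of a deletion. Directions below refer to the labels and not to a verified loss of either gene.

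A gene was tested if its probe was well above background on all 3 arrays of at least 1 group, and a change was called at an adjusted p under 0.05 (limma, Benjamini-Hochberg over all 20012 genes and unnamed features tested). By this rule 34 members were tested, 23 ligands and 11 receptors. The KO-labelled hearts had higher levels of 15 members and lower levels of 5, and 14 did not pass. Leaving out any 1 heart gave 12 to 19 members higher and 4 to 5 lower. Across everything tested, 39.1% was called, 16.1% higher and 23% lower in the KO-labelled hearts. Of all calls 41.1% were thus higher, a share that became 55.3% after cyclic loess and 60.3% after scaling to spike-ins, both of which left 15 members higher and 4 lower. The median difference (KO-labelled minus control, log2 scale) was 1.21 over the 34 members and -0.11 over everything tested. In 16 members all KO-labelled hearts read above all controls and in 5 all read below, where 22.7% and 33.1% of everything tested did so (55.9% either way). Of the 34, 28 were well above background on all 6 arrays, and 6 (Ackr1, Ccl17, Ccl3, Ccr2, Cxcl5 and Ccl11) entered through the one group in which they were high. Ccl17 and Ccr2 are among the 15 that rose, and with a filter on all 6 arrays 13 of 28 members were higher and 5 lower. These counts thus describe the members that could be measured and do not stand for all 57.

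**Figure D1:**
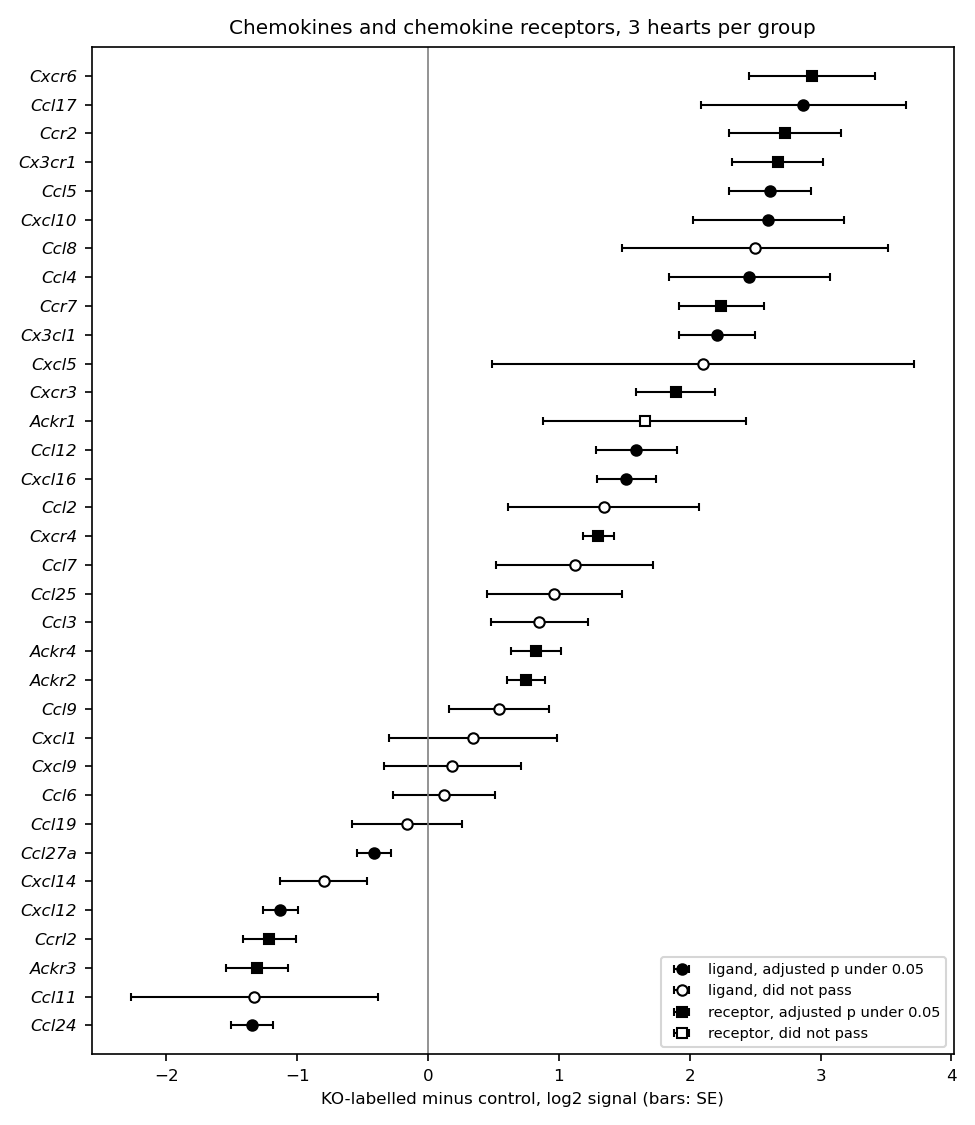
Difference between the groups for each of the 34 tested members, on the horizontal axis as KO-labelled minus control in log2 signal, with bars for the standard error from limma (3 hearts per group); circles are ligands, squares are receptors and filled symbols had an adjusted p under 0.05. Cxcr6 stands highest at 2.93 and Ccl24 lowest at -1.35, and the open symbols with the widest bars are Cxcl5, Ccl8 and Ccl11. For Ackr1, Ccl17, Ccl3, Ccr2, Cxcl5 and Ccl11, 2 of the 3 arrays of one group were not well above background, so their place depends on background values.

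Promoter sequences were available for 44 of the 57 members, including 15 of the 20 that were called, as 50 windows of 300 bases from 250 bases before to 50 after a gene's start (RefSeq, build GRCm38.p6). Some genes have several, partly overlapping windows. The 6 shown are the 250 bases before the start of called members, read 5′ to 3′ on the strand of the gene: 2 that rose and carry matches to the NF-kappaB consensus, 1 that rose with no match, the 2 falling members of the Cxcl12 axis, and 1 further falling receptor. Capitals mark matches to any of 4 motifs on either strand: the NF-kappaB consensus, the interferon-stimulated response element (GAAA, any 2 bases, then GAAA), and 2 forms of the core sequence of hypoxia response elements (ACGTG and GCGTG). A match on the opposite strand appears as its reverse complement, and a window counts once per motif whatever the number or overlap of its matches. The windows lie at chr5:92348890-92349139 (minus strand) for Cxcl10, chr9:121898105-121898354 (plus strand) for Ackr2, chr8:94771930-94772179 (plus strand) for Cx3cl1, chr6:117168285-117168534 (plus strand) for Cxcl12, chr1:90203730-90203979 (plus strand) for Ackr3 and chr9:111057519-111057768 (minus strand) for Ccrl2.
Cxcl10: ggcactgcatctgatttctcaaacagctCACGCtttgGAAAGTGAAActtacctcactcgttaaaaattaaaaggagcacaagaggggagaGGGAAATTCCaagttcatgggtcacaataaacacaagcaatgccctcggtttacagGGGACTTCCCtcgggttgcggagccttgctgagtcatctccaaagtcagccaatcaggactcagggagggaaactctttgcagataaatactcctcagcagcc
Ackr2: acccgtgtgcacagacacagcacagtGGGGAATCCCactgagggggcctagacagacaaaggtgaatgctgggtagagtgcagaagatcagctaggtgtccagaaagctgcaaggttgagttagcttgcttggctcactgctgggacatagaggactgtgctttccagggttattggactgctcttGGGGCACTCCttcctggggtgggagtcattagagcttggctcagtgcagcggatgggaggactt
Cx3cl1: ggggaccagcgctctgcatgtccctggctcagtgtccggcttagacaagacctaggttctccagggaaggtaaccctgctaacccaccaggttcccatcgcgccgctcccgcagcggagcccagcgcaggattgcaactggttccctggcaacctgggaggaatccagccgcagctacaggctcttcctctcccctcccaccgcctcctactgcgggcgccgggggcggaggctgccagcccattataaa
Cxcl12: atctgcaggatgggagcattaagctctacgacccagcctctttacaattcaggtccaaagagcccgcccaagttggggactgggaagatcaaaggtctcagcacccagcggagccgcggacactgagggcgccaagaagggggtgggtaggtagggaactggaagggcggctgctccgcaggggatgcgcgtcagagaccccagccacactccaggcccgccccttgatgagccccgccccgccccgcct
Ackr3: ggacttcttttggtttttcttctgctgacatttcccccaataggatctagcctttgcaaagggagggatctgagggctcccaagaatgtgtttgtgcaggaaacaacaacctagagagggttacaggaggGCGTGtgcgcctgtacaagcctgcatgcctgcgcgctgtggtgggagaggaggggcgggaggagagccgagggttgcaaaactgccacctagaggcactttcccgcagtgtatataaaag
Ccrl2: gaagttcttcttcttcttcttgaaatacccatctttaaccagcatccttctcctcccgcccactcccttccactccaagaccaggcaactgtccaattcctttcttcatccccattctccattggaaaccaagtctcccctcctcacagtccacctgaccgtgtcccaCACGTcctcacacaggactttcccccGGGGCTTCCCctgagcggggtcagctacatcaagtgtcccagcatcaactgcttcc

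In the Cxcl10 window the NF-kappaB consensus matched at -159 and -103, the interferon-stimulated response element at -213, and GCGTG on the opposite strand at -222, counted from the gene's start to the first base of the match. Ackr2 had NF-kappaB matches at -224 and -64, Ackr3 had GCGTG at -120, and Ccrl2 had ACGTG on the opposite strand at -82 and an NF-kappaB match at -56. The Cx3cl1 and Cxcl12 windows held none of the 4 motifs, which says only that these letters are not in these windows. Over all 50 windows of the members, 22% held the NF-kappaB consensus, against 4.51% of all 32851 promoter windows of the same length. Its 11 genes included Cxcl1, Cxcl2 and Cxcl3, neutrophil attractants that did not pass or were not tested here. The other shares, members against all windows, were 6% and 3.44% for the interferon-stimulated response element, 20% and 19.6% for ACGTG, and 42% and 32.4% for GCGTG. The NF-kappaB consensus was in 2 of 11 windows of members that rose, from 2 of 11 genes. It was in 2 of 8 windows of members that fell, from 2 of 4 genes. A match is a description of the sequence and shows neither binding nor a cause.

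Receptors accounted for 8 of the 15 members that rose. These were 8 of 11 receptors tested, beside 7 of 23 ligands tested, where 16.1% of everything tested was higher. The CC receptors Ccr2 and Ccr7, the CXC receptors Cxcr3, Cxcr4 and Cxcr6 and the CX3C receptor Cx3cr1 were higher in the KO-labelled hearts. These 6 receptors are carried mainly by leukocytes: monocytes, macrophages, dendritic cells, T cells and NK cells. In RNA from whole tissue, a change in the number of cells of a type and a change in RNA per cell cannot be told apart, and this holds for every result here. Of 6 CXC receptors with a probe 3 could be tested, and of 10 CC receptors only 2, of which Ccr2 entered through the KO-labelled group.

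Cx3cr1, the receptor that resident macrophages and patrolling monocytes carry for fractalkine, read 0.50, 0.65 and 0.94 in control hearts 1 to 3 and 4.07, 2.66 and 3.38 in KO-labelled hearts 1 to 3. Every KO-labelled heart lay far above every control, KO-labelled heart 1 was the highest, and Cx3cr1 rose by 2.67 ± 0.35 on the log2 scale (6.38-fold, adjusted p = 0.00367). A second probe of the gene gave a difference of 3.01 ± 0.33. Its ligand Cx3cl1, a membrane-bound chemokine of endothelial cells and neurons that also acts as an adhesion molecule, read 1.13, 1.16 and 0.84 in control hearts 1 to 3 and 3.86, 2.71 and 3.18 in KO-labelled hearts 1 to 3. Here too the groups were well apart and the 3 controls lay close together, and Cx3cl1 rose by 2.21 ± 0.29 on the log2 scale (4.62-fold, adjusted p = 0.00374). Ligand and receptor both passed in all 21 alternative fits tried.

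Cxcr6, found on tissue-resident T cells and NK T cells, read -1.07, -1.44 and -1.37 in control hearts 1 to 3 and 2.77, 0.73 and 1.44 in KO-labelled hearts 1 to 3. The KO-labelled hearts were widely spread, with heart 1 highest and heart 2 lowest, but even the lowest stood clear of the controls, and Cxcr6 rose by 2.93 ± 0.48 on the log2 scale (7.64-fold, adjusted p = 0.00626). A second Cxcr6 probe gave 2.99 ± 0.43. Cxcl16, its only known ligand, which is made as a membrane-bound protein by macrophages, dendritic cells and endothelium, read 0.40, 0.89 and 0.21 in control hearts 1 to 3 and 2.20, 1.71 and 2.14 in KO-labelled hearts 1 to 3. The groups did not overlap, and Cxcl16 rose by 1.52 ± 0.22 on the log2 scale (2.86-fold, adjusted p = 0.00476).

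Cxcr3, a receptor of activated T cells and NK cells, read -2.40, -2.08 and -2.87 in control hearts 1 to 3 and -0.83, 0.01 and -0.85 in KO-labelled hearts 1 to 3. KO-labelled heart 2 was the highest here, all 3 were above all controls, and Cxcr3 rose by 1.89 ± 0.30 on the log2 scale (3.71-fold, adjusted p = 0.00578). One of its interferon-inducible ligands, Cxcl10, read -1.85, 0.48 and -1.43 in control hearts 1 to 3 and 1.93, 1.56 and 1.51 in KO-labelled hearts 1 to 3. Control heart 2 stood well above the other controls, yet below each KO-labelled heart, and Cxcl10 rose by 2.60 ± 0.58 on the log2 scale (6.07-fold, adjusted p = 0.0150). Without control heart 2 the difference in Cxcl10 was 3.31, and without control heart 3 the call was lost (2.35, adjusted p = 0.0554, range 0.000160 to 0.0554 over its alternatives). Cxcl9, the other measured ligand of Cxcr3, read 0.60, -0.23 and -0.05 in control hearts 1 to 3 and -0.91, 1.09 and 0.71 in KO-labelled hearts 1 to 3. Its groups overlapped over their whole range, KO-labelled heart 1 being the lowest of the 6 and heart 2 the highest, and the difference was 0.19 ± 0.52 (adjusted p = 0.799), with 0.23 from a second probe. Whether Cxcl9 and Cxcl10 differed in their response was not tested.

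Among CC ligands of T cells and macrophages, Ccl5, made chiefly by T cells, NK cells and platelets, read 0.27, 0.52 and 0.59 in control hearts 1 to 3 and 2.47, 3.74 and 3.02 in KO-labelled hearts 1 to 3. The controls were tightly grouped, KO-labelled heart 2 was the highest, and Ccl5 rose by 2.62 ± 0.31 on the log2 scale (6.13-fold, adjusted p = 0.00315). Ccl4, made by activated macrophages and lymphocytes, read -2.95, -1.42 and -2.88 in control hearts 1 to 3 and 1.21, -0.28 and -0.80 in KO-labelled hearts 1 to 3. KO-labelled heart 3 lay closest to the raised control heart 2, and Ccl4 rose by 2.46 ± 0.62 on the log2 scale (5.48-fold, adjusted p = 0.0222), a call that was lost without control heart 1 (adjusted p = 0.0777) or control heart 3 (0.0758), against a range 0.00141 to 0.0777 over its alternatives. Ccl3, also made by activated macrophages, was well above background in only 1 of 3 controls, and its difference was 0.85 ± 0.37 (adjusted p = 0.111).

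Ccr2, the receptor by which inflammatory monocytes leave the bone marrow and enter tissue, read -3.51, -2.33 and -3.51 in control hearts 1 to 3 and 0.31, -0.90 and -0.57 in KO-labelled hearts 1 to 3. It was well above background in all KO-labelled hearts but in control heart 2 alone among controls. Ccr2 rose by 2.73 ± 0.43 on the log2 scale (adjusted p = 0.00544). Both the size and the p of Ccr2 rest on background values in 2 controls, and the difference was 1.19 with normexp background correction. With each control raised to at least the lowest signal of any probe well above background on its array, Ccr2 was at least 6.46-fold higher, and folds of other members with such arrays are given in the same way. Such a bound concerns the means of these hearts only, holds only with this background subtraction, and is not a test. Other treatments gave differences below it, such as 1.94 on the log2 scale for Ccr2 in the authors' deposited values. Of the ligands of Ccr2, Ccl12, a mouse monocyte attractant close to Ccl2, read 0.86, 1.18 and 1.39 in control hearts 1 to 3 and 3.37, 2.19 and 2.65 in KO-labelled hearts 1 to 3. KO-labelled heart 1 was the highest and heart 2 the lowest, with no overlap, and Ccl12 rose by 1.59 ± 0.31 on the log2 scale (3.01-fold, adjusted p = 0.0101). Ccl2, the best known monocyte attractant, read 0.13, 2.15 and 0.28 in control hearts 1 to 3 and 3.43, 1.16 and 2.00 in KO-labelled hearts 1 to 3. Control heart 2 lay above KO-labelled hearts 2 and 3, so the groups overlapped, and the difference was 1.34 ± 0.73 (2.53-fold higher, adjusted p = 0.182). Ccl7, also a monocyte attractant, read -0.13, 1.50 and -0.11 in control hearts 1 to 3 and 2.49, 0.63 and 1.51 in KO-labelled hearts 1 to 3. The groups again overlapped, with control heart 2 above KO-labelled heart 2, and its difference was 1.12 ± 0.60 (2.18-fold higher, adjusted p = 0.177). Without control heart 2 the differences were 1.99 for Ccl2 and 1.66 for Ccl7, with adjusted p of 0.0602 (range 0.00438 to 0.429 over its alternatives) and 0.056 (range 0.00295 to 0.414 over its alternatives).

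Ccr7, which guides dendritic cells and naive T cells to lymphoid tissue, read -2.77, -1.61 and -2.63 in control hearts 1 to 3 and -0.38, 0.14 and -0.05 in KO-labelled hearts 1 to 3. Control heart 2 was again the highest control, all KO-labelled hearts lay clearly above it, and Ccr7 rose by 2.24 ± 0.33 on the log2 scale (4.73-fold, adjusted p = 0.00465). Its ligand Ccl19, a chemokine of lymphoid stroma, read 0.03, 1.30 and 0.55 in control hearts 1 to 3 and -0.17, 1.15 and 0.43 in KO-labelled hearts 1 to 3. The 2 groups covered nearly the same range and the difference was -0.16 ± 0.42 (adjusted p = 0.785), and the other 2 Ccl19 probes gave -0.37 and -0.35. The other Ccr7 ligands, those of the Ccl21 group, had no matched probe.

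**Figure D2:**
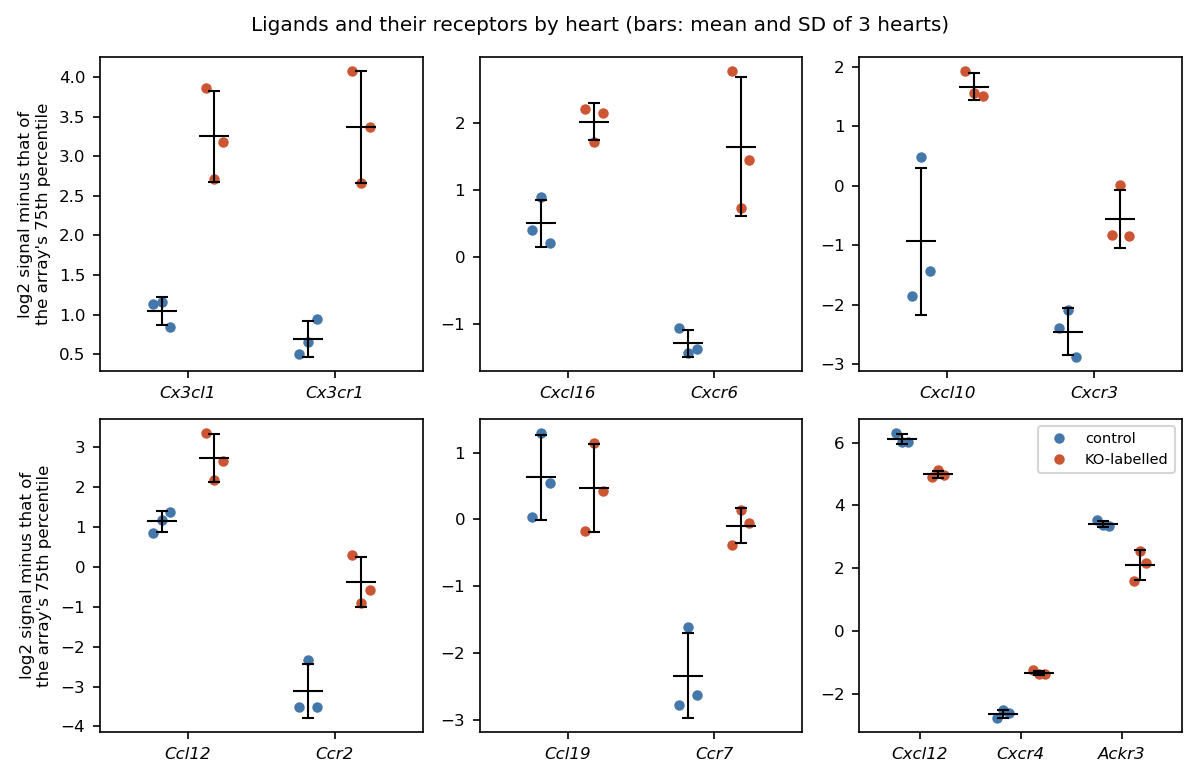
Level of 6 sets of ligands and their receptors in each heart, in log2 signal minus that of the array's 75th percentile, with control hearts in blue, KO-labelled hearts in red and bars for the mean and SD of 3 hearts; the vertical scale differs between panels and levels of different genes are not comparable. In the Cxcl10 panel control heart 2 (0.48) stands apart from the other controls, and in the Cxcl12 panel the ligand and Ackr3 are lower while Cxcr4 is higher in the KO-labelled hearts. Cxcl12 is shown by its brighter probe, and its other probe did not pass.

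The Cxcl12 axis ran in opposite directions. Cxcl12, the chemokine that holds haematopoietic cells in bone marrow niches and that endothelial cells and fibroblasts make in the heart, read 6.31, 6.03 and 6.02 in control hearts 1 to 3 and 4.90, 5.12 and 4.96 in KO-labelled hearts 1 to 3. The hearts of each group lay close together, the groups were fully apart, and Cxcl12 fell by 1.13 ± 0.14 on the log2 scale (2.19-fold, adjusted p = 0.00316). This value comes from the brighter of 2 probes. The other, designed to a different RefSeq transcript of the gene, read 0.73, 1.76 and 0.75 in the control hearts and 1.34, 1.37 and 1.09 in the KO-labelled hearts. Its groups overlapped and its difference was 0.19 ± 0.29 (adjusted p = 0.637), so the 2 probes disagreed, and with their mean the difference was -0.47 and did not pass (adjusted p = 0.0581, range 0.000108 to 0.0581 over its alternatives). The fall in Cxcl12 is therefore a result of 1 of its 2 probes.

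Cxcr4, the signalling receptor for Cxcl12 on most leukocytes and on some endothelial cells, read -2.77, -2.51 and -2.61 in control hearts 1 to 3 and -1.25, -1.38 and -1.35 in KO-labelled hearts 1 to 3. The 3 hearts of each group lay close together and the groups were apart, and Cxcr4 rose by 1.30 ± 0.12 on the log2 scale (2.47-fold, adjusted p = 0.00209). Ackr3, the atypical receptor that removes Cxcl12 and is carried by endothelial cells among others, read 3.53, 3.37 and 3.34 in control hearts 1 to 3 and 1.60, 2.54 and 2.18 in KO-labelled hearts 1 to 3. The controls were tightly grouped, all KO-labelled hearts were lower with heart 1 the lowest, and Ackr3 fell by 1.31 ± 0.24 on the log2 scale (2.48-fold, adjusted p = 0.00836). Cxcr4 and Ackr3 passed in all 21 alternative fits, each always in the same direction.

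Of the 5 atypical receptors, 2 rose (Ackr2 and Ackr4), 2 fell (Ackr3 and Ccrl2) and Ackr1 did not pass. Ackr2, which takes up and degrades inflammatory CC chemokines, read -0.25, 0.04 and -0.18 in control hearts 1 to 3 and 0.44, 0.79 and 0.63 in KO-labelled hearts 1 to 3. The groups did not overlap, and Ackr2 rose by 0.75 ± 0.14 on the log2 scale (1.68-fold, adjusted p = 0.00982). Ackr4, which scavenges Ccl19, Ccl21 and Ccl25, read -0.04, 0.05 and 0.29 in control hearts 1 to 3 and 0.62, 0.90 and 1.26 in KO-labelled hearts 1 to 3. Again the groups did not overlap, though control heart 3 and KO-labelled heart 1 were close, and Ackr4 rose by 0.82 ± 0.19 on the log2 scale (1.77-fold, adjusted p = 0.0179). The call for Ackr4 was lost without control heart 1 (0.75, adjusted p = 0.0683, range 0.000684 to 0.0750 over its alternatives).

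Ccrl2, which presents chemerin to other cells and is carried by activated endothelium and myeloid cells, read 0.45, 0.15 and 0.61 in control hearts 1 to 3 and -1.11, -0.48 and -0.83 in KO-labelled hearts 1 to 3. KO-labelled heart 1 was the lowest, all 3 lay below all controls, and Ccrl2 fell by 1.21 ± 0.20 on the log2 scale (2.32-fold, adjusted p = 0.00657). Ackr1, the Duffy antigen receptor of erythroid cells and venular endothelium, was above background in all KO-labelled hearts but only in control heart 2 among controls. It read -4.29, -1.53 and -3.94 in control hearts 1 to 3 and -0.65, -2.19 and -1.95 in KO-labelled hearts 1 to 3. The groups overlapped through control heart 2, and the fitted difference was 1.65 ± 0.78 and did not pass (adjusted p = 0.132). The mean of Ackr1 in these KO-labelled hearts was at least 2.32-fold higher, and the difference was 0.36 with normexp background correction. Without control heart 2 no control was above background, and Ackr1 was at least 3.62-fold higher. That fit sets signal against background values alone, so its p is not given. Ackr1 did not pass in 17 of its 20 alternative fits.

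Among CC ligands, Ccl24 (eotaxin-2, an eosinophil attractant made by macrophages) had the largest fall of the 5 that were called. It read 0.75, 0.81 and 0.68 in control hearts 1 to 3 and -0.90, -0.39 and -0.52 in KO-labelled hearts 1 to 3. The controls were tightly grouped and lay more than 1 unit above all KO-labelled hearts, and Ccl24 fell by 1.35 ± 0.16 on the log2 scale (2.54-fold, adjusted p = 0.00306). Ccl11 (eotaxin-1), a ligand of the same receptor, read -2.66, -2.36 and -3.04 in control hearts 1 to 3 and -6.17, -2.06 and -3.81 in KO-labelled hearts 1 to 3, and among KO-labelled hearts it was above background in heart 2 alone. Heart 2 lay above all controls while hearts 1 and 3 lay below them, and the fitted difference was -1.33 ± 0.94 and did not pass (adjusted p = 0.294). The mean of Ccl11 in these KO-labelled hearts was at least 1.39-fold lower, whereas the difference was 0.080 in the authors' deposited values. Without KO-labelled heart 2 no KO-labelled heart was above background, and Ccl11 was at least 2.03-fold lower. That fit sets signal against background values alone, so its p is not given. Ccl11 did not pass in 19 of its 20 alternative fits. Ccr3, the receptor of both, was not tested. Ccl27a, a chemokine of epithelium, read 2.11, 1.84 and 2.10 in control hearts 1 to 3 and 1.50, 1.60 and 1.72 in KO-labelled hearts 1 to 3. The groups did not overlap, and Ccl27a fell by 0.41 ± 0.13 on the log2 scale (1.33-fold, adjusted p = 0.0471), the smallest change called. A second Ccl27a probe gave -0.31 (adjusted p = 0.0951), the call was lost in 11 of 21 alternative fits (range 0.00393 to 0.336 over its alternatives), and Ccl27b, a near-identical copy of the gene, may share its signal, so the value is uncertain.

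Ccl17, an attractant of T helper cells and regulatory T cells made by dendritic cells and macrophages, read -4.13, -1.93 and -3.60 in control hearts 1 to 3 and 0.80, -1.76 and -0.10 in KO-labelled hearts 1 to 3. Among controls it was well above background in heart 2 alone, which came close to KO-labelled heart 2. Ccl17 rose by 2.87 ± 0.78 on the log2 scale (adjusted p = 0.0290) and was at least 6.03-fold higher. Both the size and the p of Ccl17 rest on background values in 2 controls. The difference was 1.27 with normexp background correction. The call was lost in 8 of 20 alternative fits (range 0.000344 to 0.0945 over its alternatives). Single hearts that ended it were control 1 (adjusted p = 0.0945), control 3 (0.0905), KO-labelled 1 (0.0715) and KO-labelled 3 (0.0773). Without control heart 2 no control was above background and Ccl17 was at least 8.58-fold higher, and without KO-labelled heart 2 its difference was 3.57. Ccr4, its receptor, was not above background on any array.

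The remaining ligands did not pass, and in several of them 1 heart lay far from the rest of its group. Ccl8, a monocyte and T cell attractant, read 0.26, 4.40 and 0.93 in control hearts 1 to 3 and 4.21, 4.09 and 4.79 in KO-labelled hearts 1 to 3. Control heart 2 was level with the KO-labelled hearts and the other controls were more than 3 units lower. The difference of Ccl8 was 2.50 ± 1.02 (5.66-fold higher, adjusted p = 0.0924), and without control heart 2 it was 3.77 (adjusted p = 0.00288, range 0.000569 to 0.246 over its alternatives). Cxcl5, a neutrophil attractant, read -5.45, 0.95 and -4.0 in control hearts 1 to 3 and -1.26, -1.65 and 0.72 in KO-labelled hearts 1 to 3. Control heart 2 was the highest of all 6 hearts and the only control above background. The fitted difference was 2.10 ± 1.61 and did not pass (adjusted p = 0.329), with the mean of these KO-labelled hearts at least 2.39-fold higher. In the authors' deposited values the difference was 0.32. Without control heart 2 no control was above background, and the mean of Cxcl5 was at least 6.62-fold higher. That fit sets signal against background values alone, so its p is not given. Cxcl5 did not pass in 17 of its 20 alternative fits. Cxcl1, another neutrophil attractant, read -3.29, -0.92 and -3.17 in control hearts 1 to 3 and -2.25, -2.50 and -1.60 in KO-labelled hearts 1 to 3. Once more control heart 2 was the highest of the 6, and the difference was 0.34 ± 0.64 (adjusted p = 0.695). Without that heart it was 1.11 (adjusted p = 0.0297, range 0.00772 to 0.991 over its alternatives).

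Ccl25, the attractant of thymocytes and gut T cells, read -0.65, -0.71 and -0.66 in control hearts 1 to 3 and -0.18, 1.59 and -0.52 in KO-labelled hearts 1 to 3. The groups did not overlap, but only KO-labelled heart 2 stood clearly above the controls, and the difference was 0.97 ± 0.52 (adjusted p = 0.178). Cxcl14, a chemokine of fibroblasts and epithelium, read 2.37, 2.71 and 2.08 in control hearts 1 to 3 and 2.31, 1.26 and 1.19 in KO-labelled hearts 1 to 3. KO-labelled hearts 2 and 3 were below all controls and heart 1 was among them, and the difference was -0.80 ± 0.33 (adjusted p = 0.0968). Without KO-labelled heart 1 it was -1.16 (adjusted p = 0.0137, range 0.00309 to 0.391 over its alternatives). Ccl6, a chemokine of myeloid cells, read 3.37, 4.87 and 3.66 in control hearts 1 to 3 and 4.30, 3.80 and 4.18 in KO-labelled hearts 1 to 3. Control heart 2 was the highest of the 6, and the difference was 0.12 ± 0.39 (adjusted p = 0.819). Ccl9, also made by myeloid cells, read 2.27, 3.33 and 2.62 in control hearts 1 to 3 and 3.77, 2.59 and 3.50 in KO-labelled hearts 1 to 3. The groups overlapped, and the difference was 0.54 ± 0.38 (adjusted p = 0.290).

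**Figure D3:**
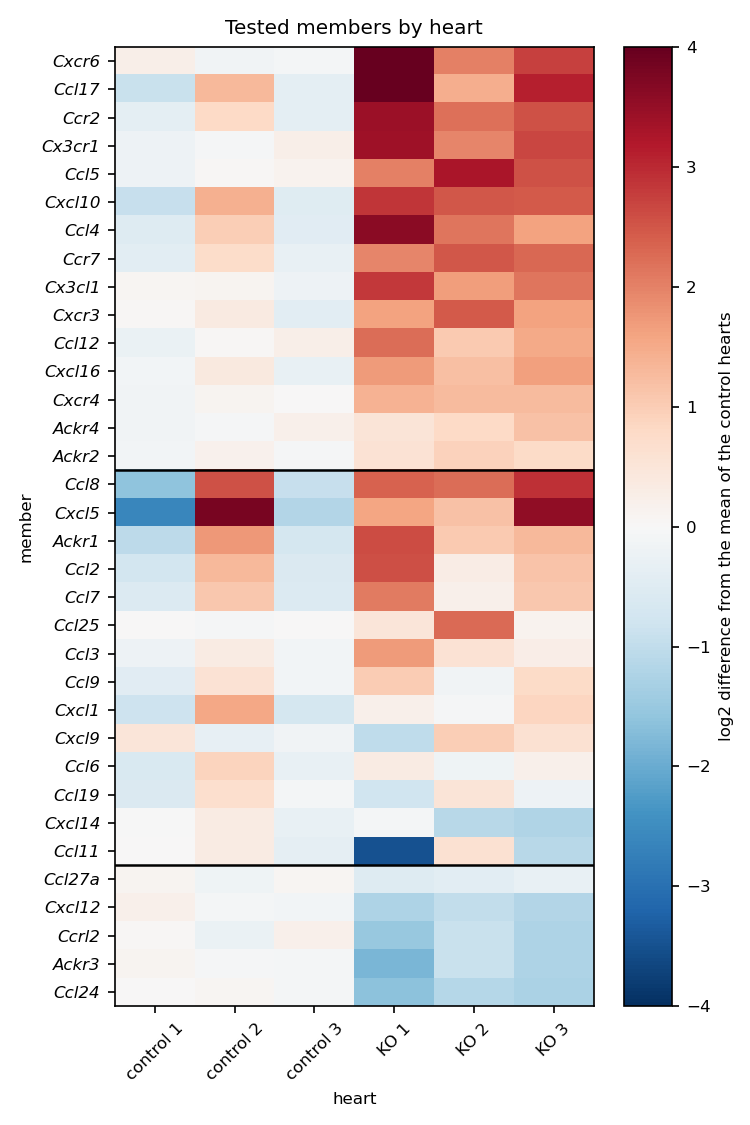
Each tested member (rows) in each heart (columns), coloured by its log2 difference from the mean of the 3 control hearts; lines separate the members that were higher, those that did not pass and those that were lower, and colours are clipped at 4 units. The column of control heart 2 is redder than the other controls in Ccl8, Cxcl5, Ackr1, Cxcl1 and Cxcl10, and only KO-labelled heart 2 is strongly red in Ccl25.

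Control heart 2 was often the highest control in this group of genes. It was so in 23 of the 34 tested members, in 10 of the 15 that rose and in 12 of the 14 that did not pass. A high control itself keeps a rising member from passing. These shares were not computed over everything tested, so they are not shown to be particular to the members. Control heart 2 was also the highest control in every tested macrophage marker and the lowest in every cardiomyocyte marker. In 13 members control heart 2 exceeded the mean of the other 2 controls by at least 1 log2 unit, and in 0 it fell below by as much. Among members above background in all controls its excess was 3.81 in Ccl8, 2.31 in Cxcl1, 2.12 in Cxcl10 and 1.95 in Ccl2. In Cxcl5, Ackr1, Ccl17, Ccr2 and Ccl3 it was the only control above background. Its array was also the brightest of the controls, with a 75th percentile signal of 201 against 147 and 148. On it 51.0% of probes were well above background, against 47.6% and 46.3%, and the lowest such signal was -4.03, against -3.51 and -3.39. The part of this in the flags of dim members was not tested. Without control heart 2, 19 members were higher and 5 lower. The 15 members that rose with all hearts were all among the 19, and Ackr1, Ccl8, Cxcl1 and Cxcl5 joined them. Ackr1, Cxcl5, Ccl17 and Ccr2 had no control left above background in that fit. Their calls there set signal against background values and are no support for a rise. Without control heart 2 and KO-labelled heart 2 together, an alternative chosen after seeing the data, 22 were higher and 5 lower.

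Marker genes of other cell types differed between the same hearts. Sums of marker signals are given in multiples of the array's 75th percentile. The 4 monocyte markers summed to 10.3, 74.3 and 20.1 in control hearts 1 to 3 and to 261, 132 and 180 in KO-labelled hearts 1 to 3. Fn1, which encodes fibronectin and is also made by fibroblasts, held most of each sum and was the only one of the 4 called. The other 3 (Plac8, Cd14 and Chil3) summed to 1.83, 7.49 and 2.52 in control hearts 1 to 3 and to 17.3, 7.10 and 9.27 in KO-labelled hearts 1 to 3, so that control heart 2 was above KO-labelled heart 2. The 7 macrophage markers summed to between 64.1 and 96.5 in controls and between 120 and 190 in KO-labelled hearts. Of these, Adgre1, Fcgr1, Csf1r and C1qa were higher, Cd163 was lower, and Mrc1 and Mertk did not pass. The part of these shifts in the chemokine results was not tested.

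Of the remaining leukocyte lists, 1 of 3 tested T cell markers (Cd3d, of 6 with a probe), 1 of 3 NK cell markers (Klrd1) and 2 of 4 dendritic cell markers (Flt3 and Itgax) were higher. Cd3d and Flt3 were above background in 1 of 3 controls and Klrd1 in 0 of 3, so these calls rest on background values in controls. Cd3e, Cd4, Gzma, Prf1, Zbtb46 and Siglech, above background on every array, did not pass. The defining NK cell genes Ncr1 and Klrb1c were not above background on any array. None of 3 neutrophil, 2 B cell, 4 platelet and 2 erythroid markers was called. Of 3 tested mast cell and eosinophil markers Kit was higher, Cpa3 and Mcpt4 did not pass, and the eosinophil gene Prg2 was not above background on any array. The 6 endothelial markers summed to between 28.6 and 31.6 in controls and between 24.2 and 31.6 in KO-labelled hearts, and none was called. Their sum was below all controls in 2 of 3 KO-labelled hearts, and Tek (-0.69) and Pecam1 (-0.53) read below all controls in every KO-labelled heart. Of 4 lymphatic endothelial markers, Prox1 (-1.24) and Lyve1 (-1.18) were lower, Pdpn was higher and Flt4 did not pass. Their part in the differences of Cx3cl1, Cxcl12 and Ackr3 was not tested. Of 6 smooth muscle and pericyte markers, Cnn1 and Cspg4 were higher and Rgs5 and Myh11 lower. The 6 fibroblast markers summed to between 378 and 646 in controls and between 831 and 901 in KO-labelled hearts, with Col1a1, Col1a2, Tcf21 and Lum higher.

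**Figure D4:**
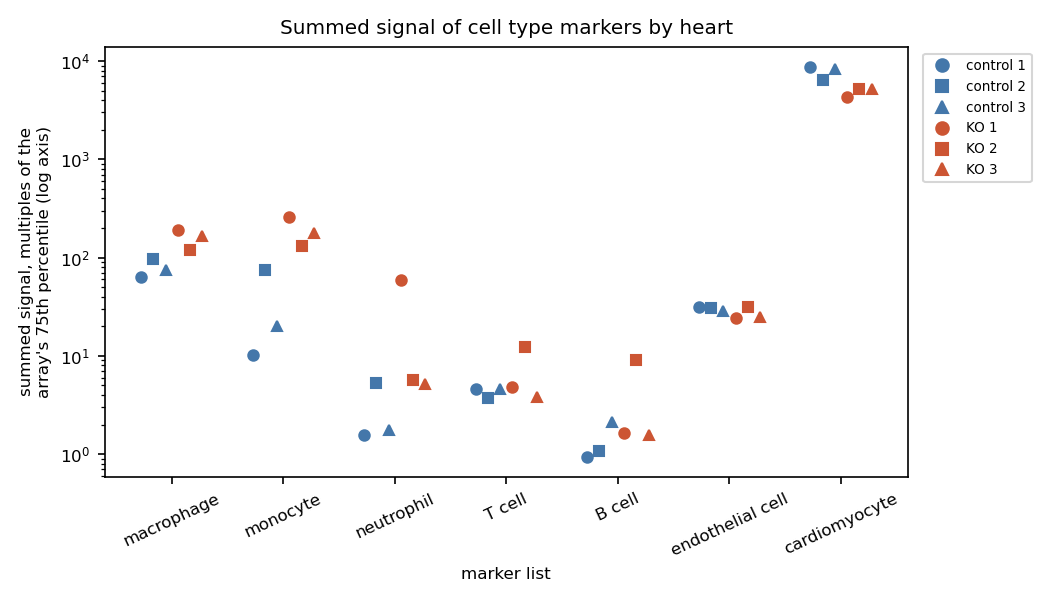
Summed signal of cell type markers in each heart, on a log axis in multiples of the array's 75th percentile, with 1 symbol per heart, control in blue and KO-labelled in red. Control heart 2 (74.3) is high for monocyte markers, KO-labelled heart 1 (59.1) for neutrophil markers and KO-labelled heart 2 for T cell (12.2) and B cell (9.05) markers, while the cardiomyocyte sum is lower in all KO-labelled hearts.

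The 23 members that were not tested were dim. Of these, 12 were not above background on any array: the ligands Ccl1, Ccl20, Ccl22, Ccl26, Ccl28, Cxcl2, Cxcl15 and Xcl1, and the receptors Ccr1, Ccr1l1, Ccr4 and Xcr1. No fold can be given for them, and a dim probe does not show that the RNA was absent. The other 11 were above background on some arrays only. Ccr10 was so in control heart 3 alone, Ccr3 and Cxcl3 in control heart 2 alone, and Cxcl17 in control heart 3 and KO-labelled heart 2.

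Single KO-labelled hearts stood out among these dim members. Ccr6, a receptor of B cells and T helper 17 cells, was above background in KO-labelled hearts 1 and 2 and in no control, which put it at least 2.51-fold higher in the KO-labelled hearts, untested. A bound of this kind sets the mean of the brighter group against a raised mean of the other. Each array of the other group takes the higher of its own signal and the lowest signal of any probe well above background. The bound holds only with this background subtraction. Cxcr5, the B cell receptor, was above background in KO-labelled heart 2 alone. Its ligand Cxcl13 was above background in control hearts 2 and 3 and, at its highest, in KO-labelled heart 2. Ccr9, the receptor for Ccl25, was highest in KO-labelled heart 2 and also above background in control heart 2 and KO-labelled heart 1. In KO-labelled heart 2 the T cell markers summed to 12.2 against 3.72 to 4.86 in the 5 other hearts, and the B cell markers to 9.05 against 0.933 to 2.14.

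Neutrophil receptors stood out in another heart. Cxcr1 and Cxcr2, receptors of neutrophils for CXC ligands such as Cxcl5, were above background in KO-labelled heart 1 alone, as was 1 of 2 probes of Ccr8. For Cxcr2 this gave a bound of at least 1.60-fold higher, and for Cxcr1 and Ccr8 none above 1. The neutrophil markers summed to 59.1 in that heart and to between 1.57 and 5.66 in the 5 others. S100a9 and S100a8, at log2 levels of 5.54 and 3.59 there, held most of the sum of 59.1. Camp (-1.86) and Mpo (-2.54) were also highest in that heart but dim. Ltf was highest in KO-labelled heart 2 (0.97, against -3.09 in KO-labelled heart 1). Whether the cells of these markers carried the receptor signal was not tested.

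**Figure D5:**
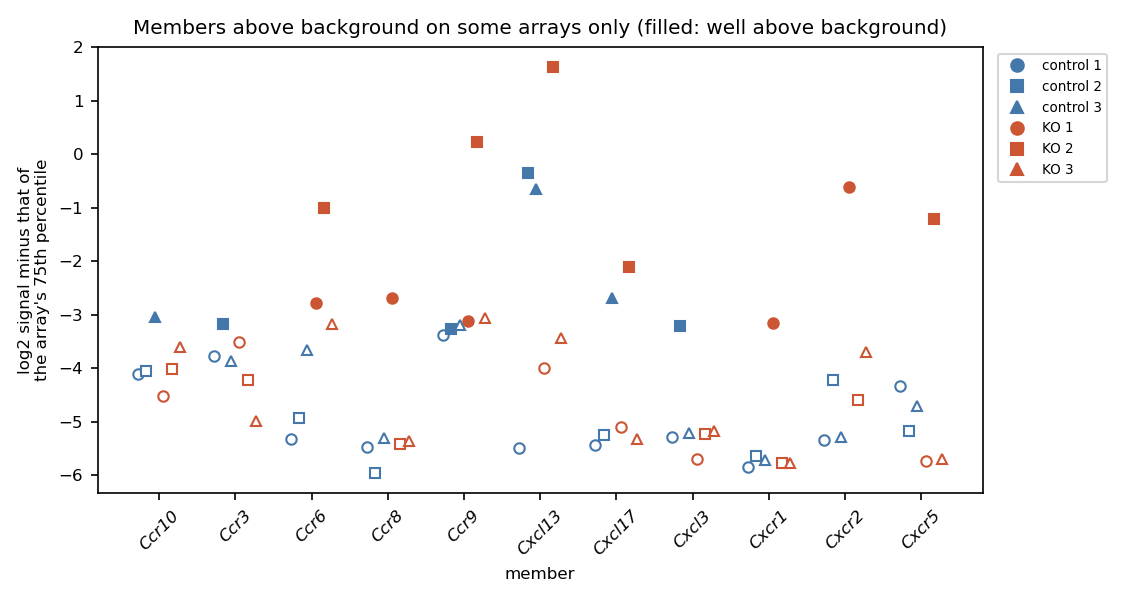
Level in each heart of the 11 members that were well above background on some arrays only, in log2 signal minus that of the array's 75th percentile; filled symbols were well above background and open ones were not, and shapes mark the hearts of each group. KO-labelled heart 2 (red squares) is the highest in Ccr6, Ccr9, Cxcl13 and Cxcr5, and KO-labelled heart 1 (red circles) in Cxcr1 and Cxcr2.

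Ligands and receptors were then set side by side in 24 known pairs. In 4 pairs both partners were higher: Cx3cl1 with Cx3cr1, Cxcl16 with Cxcr6, Cxcl10 with Cxcr3 and Ccl12 with Ccr2, of which Ccr2 was above background in 1 of 3 controls. In 4 further pairs the receptor was higher and the ligand did not pass. Cxcl12 with Cxcr4 was the only pair with a lower ligand and a higher receptor, and Cxcl12 with Ackr3 the only one with both lower. Both rest on the brighter Cxcl12 probe (-1.13), as the other probe did not pass (0.19). In the other 14 pairs at least 1 partner could not be tested.

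Many members lie in runs of neighbouring genes. In the order of the RefSeq gene table, Ccl2, Ccl7, Ccl11, Ccl12, Ccl8 and Ccl1 follow each other on chromosome 11, and of these only Ccl12 was called, while Ccl2, Ccl7 and Ccl8 had differences of the same sign (1.34, 1.12 and 2.50) that did not pass. Ccl5, Ccl9, Ccl6, Ccl3 and Ccl4 form a second run there, in which the outermost genes, Ccl5 and Ccl4, were higher and the inner 3 did not pass. Differences between neighbours were not tested. On chromosome 9, Cxcr6 and Ccr2 were higher, and the 4 genes between Cxcr6 and Ccr2 (Xcr1, Ccr1, Ccr1l1 and Ccr3) were not tested. Ccl22, Cx3cl1 and Ccl17 are neighbours on chromosome 8, with Cx3cl1 and Ccl17 higher and Ccl22 not above background on any array. Ccl26 and Ccl24 are neighbours on chromosome 5, with Ccl24 lower and Ccl26 not above background on any array.

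Around the receptors, genes that carry their signal inside the cell were mostly higher or did not pass. Of 27 tested genes in a list of receptor signalling, 15 rose and none fell (median difference 0.94), or 55.6% higher where 16.1% of everything tested was higher and 23% lower. Fgr, among the 15, was above background in only 1 of 3 controls and entered through the KO-labelled group. Prex1 and Rac2, an activator and a GTPase of leukocyte migration, rose by 1.31 ± 0.13 and 1.86 ± 0.23. Lyn, a kinase of myeloid and B cells, rose by 0.88 ± 0.12, and Gnb1, a G protein beta subunit, by 0.91 ± 0.14. The values of these surrounding genes are log2 differences (KO-labelled minus control) with their SE, and the median over everything tested was -0.11. This list and the following ones were chosen with earlier results of these data known, so their shares are descriptions only.

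Of 15 tested genes that cleave, shed or display chemokines, 3 rose, 1 fell and 11 did not pass (median 0.39), so that the share higher (20%) was near that of everything tested. Adam10, a protease that sheds Cx3cl1 and Cxcl16 from the cell surface, rose by 0.63 ± 0.11, Mmp2 by 0.78 ± 0.19 and the chemokine-binding protein Tnfaip6 by 1.82 ± 0.56. Hs2st1, an enzyme that modifies heparan sulfate, fell (-0.68 ± 0.16). Among 13 tested cytokines and receptors that induce chemokines, 7 (53.8%) rose and none fell (median 0.72). They included Tnfrsf1a (0.72 ± 0.14), Tgfb1 (0.65 ± 0.13), Il17ra and Ifnar1 (0.45 ± 0.12). Il17ra and Il6, both among the 7, were above background in only 1 of 3 controls and entered through the KO-labelled group. Their sizes rest on background values and are not given. The cytokine genes Ifng, Ifnb1, Il4, Il13, Il17a, Lta and Osm were not above background on any array.

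Other chemoattractants and their receptors gave 7 rises (38.9%) and no falls among 18 tested (median 0.98). Gpr183, among the 7, was above background in 2 of 3 controls and entered through the KO-labelled group. Mif and its receptor chain Cd74 rose by 1.29 ± 0.18 and 1.32 ± 0.21, and the complement receptors C3ar1 and C5ar2 by 1.63 ± 0.30 and 0.86 ± 0.17. The CXC chemokines Pf4 and Ppbp, which platelets store and whose symbols fall outside the naming rule, did not pass (0.25 and 0.70). Of 15 tested leukocyte adhesion genes, 6 (40%) rose and 1 fell (median 0.94). Itga4, Selplg, Itgax and Itgb7 rose by 1.52 ± 0.17, 1.72 ± 0.23, 2.81 ± 0.41 and 1.45 ± 0.26, while Itgam, the alpha chain of Mac-1, fell (-0.51 ± 0.13).

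The size of the differences of dim members depended on how background was handled. With normexp background correction, which adds an offset of 50 and so compresses low signals, every call among the 20 held. The differences then fell to 0.46 for Cxcr4, 0.84 for Cxcr3, 1.07 for Ccr7, 1.19 for Ccr2, 1.24 for Ccl4, 1.27 for Ccl17, 1.83 for Cxcl10 and 2.13 for Cxcr6. In the authors' deposited value table the difference was 1.94 for Ccr2 and 1.45 for Ccl17, the latter without passing (adjusted p = 0.0856, range 0.000344 to 0.0945 over its alternatives). Directions of the called members did not change in any of the alternative fits.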

How the data were processed

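Per the file headers, the deposited intensity values are linear spot brightness from Agilent Feature Extraction 11.0.1.1, with background and spatial trends removed inside each array and no scaling between arrays. The same software set the deposited flags for outlying, saturated or dim spots. A second source, the authors' deposited matrix of log2 values, is credited to that software and R 3.1.3 in the submitters' processing notes; its scaling, centring and direction are not stated. For RNA the labels name a column kit in one field and a kit for blood RNA, followed by globin removal, in another, which was not resolved.

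Processed signals were put on the log2 scale without outlying spots, averaged over repeated spots, and set relative to the 75th percentile of their array. Of 55681 probes, 73 were left out as outliers on at least 1 array. RefSeq accessions in the files named 26551 of the 55608 others through a RefSeq gene table, and 29057 had no symbol. Where several probes of a gene were kept, the one with the highest mean stood for it. Tests were 2-sided, with limma 3.58.1 in R 4.3.3 (data.table, version 1.17.8) and no covariates, on all 6 arrays. With 3 hearts against 3, an exact permutation test cannot give a p below 0.1, so calls rest on variances pooled across genes. The scripts were tested on simulated data.

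The members, lists and pairs were chosen with earlier results of these data known. The results of 1 gene that the naming rule takes in are not reported here, and it is left out of the members and their counts, but not of the fit. Every member is named. Values per heart are given for members that passed, were above background on all 6 arrays, or were tested with a difference of at least 1 on the log2 scale. Folds are given for members that passed or had such a difference. From each surrounding list up to 4 passing genes with the smallest p are named, as are passing genes not above background in all controls.

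Alternatives were normexp (offset 50), other scalings, the deposited matrix, other filters, other uses of several probes, other variance models, the replicate block, leaving out each heart and other thresholds. Normexp used median spot signals, because the files have no column of mean signals. In the deposited matrix, 94.89% of differences between arrays matched the scanner's within 0.001, and its column medians were 0.093, -0.018 and 0.074 for controls and -0.038, -0.050 and -0.015 for KO-labelled arrays. Replicate numbers were treated as labels only, and a pairing of hearts by number was not shown. The number of arrays limits the precision.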

Additional observations from a re-analysis of the deposited data

How the results depend on the processing

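The counts of members moved beyond 1.5 times in 2 settings. With array weights, a fit whose weights stopped short of their convergence tolerance, 23 members were higher (15 in the reported fit), and with the mean of a gene's probes 3 were lower in place of 5. Leaving out single hearts gave 12 to 19 members higher and 4 to 5 lower. Genes and features called numbered 7815 with all hearts, 3987 to 8671 without single hearts, 4345 with no filter on dim probes, 3106 at an adjusted p under 0.01 (10 members higher) and 13711 with array weights. The share of all calls that were higher was 41.1%, against 55.3% after cyclic loess and 60.3% after scaling to spike-ins. These moved the median of all genes by 0.14 and 0.24 and left 15 members higher and 4 lower. A replicate block gave 4859 calls, with 13 members higher and 4 lower; Ccl17, Ccl27a and Ccl4 were lost. Same-numbered hearts deviated with correlations of -0.15, -0.12 and -0.08, and no heart correlated best with its own number. With so few hearts per group such correlations cannot exclude a pairing by number. Without a filter, Xcl1, not above background on any array, was also called. No called member changed sign. Among those that did not pass, Cxcl1 turned with normexp (-0.10) and Ccl11 in the deposited matrix (0.080). Ccl19 turned with spike-in scaling (0.085) and array weights (0.0088). With hearts left out, Cxcl1 ran from -0.070 to 1.31, Ccl19 from -0.50 to 0.17, Ccl6 from -0.17 to 0.73 and Cxcl9 from -0.38 to 0.79. Cxcl1 and Ccl6 turned without control heart 1 or 3, Ccl19 without control heart 2 or KO-labelled heart 1, and Cxcl9 without KO-labelled heart 2 or 3. These ranges include leaving out control heart 2 and KO-labelled heart 2 together, chosen after seeing the data. The causes were not tested. Signal near background limits the folds of dim members, and the filter on all 6 arrays leaves Ccl17 and Ccr2 untested.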
